A study of Mus musculus with 6 samples.

Results

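The 44 genes described here are interferon-stimulated genes, chosen by name from a fixed list. That list was drawn up with earlier results of these data known, which bears on each comparison with all genes below. All 44 genes were found once each in the deposited gene count table of 56748 genes. They were followed in MLL-AF9 leukemia, a mouse model of acute myeloid leukemia driven by a fusion protein of MLL and AF9. To learn how the RNA-binding splicing protein RBM5 bears on the MLL gene program, the series used bulk RNA sequencing of primary leukemia cells from bone marrow, labelled as Rbm5 knockout or wild type. There were 3 libraries labelled Rbm5 KO (numbers 31, 32 and 40) and 3 labelled Rbm5 WT (numbers 25, 27 and 29), and MLL-AF9 was shared by all 6. The labels name whole bone marrow as the cell type and call the replicates independent, while the protocol text also speaks of cultured cells. Strain, age, treatment and the allele behind the knockout are not given in the labels used here, and no treatment with interferon is named.

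Interferons are secreted proteins that warn cells of infection. Type I interferons bind the receptor made of IFNAR1 and IFNAR2, the kinases JAK1 and TYK2 then activate STAT proteins, and STAT2 with IRF9 carries the signal to a DNA element called the interferon-stimulated response element. Interferon gamma uses its own receptor and a different DNA element, the gamma-activated site. The induced genes encode antiviral enzymes, nucleic acid sensors, GTPases and regulators that strengthen or end the signal, and many of them are also expressed at a low level in blood cells without infection.

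Total counts per library ran from 26359299 to 31807588, of which the members took 0.071% to 0.129%. The targeted gene Rbm5 was at 227, 214 and 174 CPM (the gene's counts scaled to a library of fixed size) in wild type and at 269, 267 and 245 CPM in knockout, so it was not reduced, with a log2 fold change of 0.34 and an adjusted p of 0.107 by edgeR's quasi-likelihood test. The words knockout and wild type therefore stand for labels, and each direction rests on them. Which part of Rbm5 was targeted is not stated in the labels, so counts over the whole gene may not show its loss. The groups also differed in sex: 4 Y-linked genes summed to 0 counts in every wild-type library and to 6899 to 7358 counts in the knockout libraries, so sex and label cannot be told apart. Genes on chromosome 6 stood apart in wild-type libraries 27 and 29, where the median of 395 well expressed genes was 0.36 higher on the log2 scale than in the other 4 libraries. Of the members, 3 lie on chromosome 6 (Samd9l, Usp18 and Herc6).

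Promoter sequences are shown because the pathway acts through short DNA elements near its genes, and 32 of the 44 members matched an entry by symbol in the RefSeq promoter table (build GRCm38.p6). In the 250 bases before the annotated start, a match to GAAANNGAAA on either strand, the core of the interferon-stimulated response element, was found for 16 of 32 members (50%), against 3.46% of 27025 genes in the table. A match to TTCNNNGAA, the letters of the gamma-activated site, which read the same on both strands, was found for 7 of 32 members (21.9%), against 8.13% of all genes. The 2 searches were independent, and the matches of both kinds can overlap, as they do in Bst2. A match is a run of letters and not a measured binding site. The 4 members below that passed the test for a difference between groups and had an entry are shown with Isg15, which has 3 overlapping response element matches, and Bst2, in which both kinds of match overlap and the groups stood in the reverse order. Each is given 5′ to 3′ on the strand of its gene, with matches in capitals.
Samd9l, chr6:3399572-3399821, minus strand: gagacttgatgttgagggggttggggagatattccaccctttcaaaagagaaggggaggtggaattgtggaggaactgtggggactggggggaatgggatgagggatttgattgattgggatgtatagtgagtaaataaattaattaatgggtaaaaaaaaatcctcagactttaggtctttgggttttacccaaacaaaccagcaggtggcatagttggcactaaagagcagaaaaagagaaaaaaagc
Cmpk2, chr12:26468965-26469214, plus strand: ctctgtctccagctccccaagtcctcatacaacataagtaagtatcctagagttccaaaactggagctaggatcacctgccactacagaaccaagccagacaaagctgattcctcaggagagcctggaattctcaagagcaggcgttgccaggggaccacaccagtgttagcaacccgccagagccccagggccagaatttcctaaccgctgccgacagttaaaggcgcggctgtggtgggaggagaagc
Stat2, chr10:128270248-128270497, plus strand: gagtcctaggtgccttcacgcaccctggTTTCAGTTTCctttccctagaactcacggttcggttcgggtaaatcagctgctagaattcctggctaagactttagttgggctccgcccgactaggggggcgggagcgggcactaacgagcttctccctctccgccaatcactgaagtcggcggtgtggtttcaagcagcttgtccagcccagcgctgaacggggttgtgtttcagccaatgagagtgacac
Rsad2, chr12:26456453-26456702, minus strand: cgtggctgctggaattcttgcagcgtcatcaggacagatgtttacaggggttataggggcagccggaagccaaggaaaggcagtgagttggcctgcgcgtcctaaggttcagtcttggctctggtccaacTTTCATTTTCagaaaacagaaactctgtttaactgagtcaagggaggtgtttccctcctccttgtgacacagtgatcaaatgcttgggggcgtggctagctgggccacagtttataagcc
Isg15, chr4:156200819-156201068, minus strand: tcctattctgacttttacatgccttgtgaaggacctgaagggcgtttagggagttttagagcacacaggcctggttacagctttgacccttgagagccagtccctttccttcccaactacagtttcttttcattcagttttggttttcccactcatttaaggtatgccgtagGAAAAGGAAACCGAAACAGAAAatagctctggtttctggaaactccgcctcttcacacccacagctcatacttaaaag
Bst2, chr8:71537473-71537722, minus strand: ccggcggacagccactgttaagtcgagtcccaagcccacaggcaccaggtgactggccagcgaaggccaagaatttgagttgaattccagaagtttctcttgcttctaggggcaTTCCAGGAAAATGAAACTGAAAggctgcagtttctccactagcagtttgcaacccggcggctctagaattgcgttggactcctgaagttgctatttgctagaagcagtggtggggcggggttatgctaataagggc
The match in Rsad2 begins 120 bases before the start and the one in Stat2 222 bases before it. Isg15 has its 3 matches from 78 to 66 bases before the start. In these windows Cmpk2 and Samd9l hold neither run of letters.

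Levels of the members were mostly low or moderate. Averaged over the 6 libraries, 6 members were under 1 CPM, 13 were between 1 and 10, 21 between 10 and 50, and 4 at 50 CPM or more. Levels were also divided by the gene length as deposited, which is not always that of a transcript. For Irgm1 it was 5810 bases against 2259 in the longest coding transcript of GENCODE M21, and for Oas1a 1885 in both. The order of genes by this measure is therefore rough. Per kilobase of that length it was led by Ifitm3, a membrane protein that blocks virus entry, at 60.8 CPM per kilobase. Next came Bst2, the tetherin that holds budding virus at the cell surface, at 41.5, the transcription factor gene Irf1 at 18.6, the oligoadenylate synthetase gene Oas1a at 16.6 and Samd9l at 13.1. Isg15, the ubiquitin-like modifier that is among the most inducible genes of the pathway, ranked 26 of 44 at 2.65 CPM per kilobase. Toward the other end were Ifit1 at 0.192 and Ifi44, the last, at 0.00202. Spreads over libraries were wide: the CPM of Ifitm3 ran from 19.2 to 77.3 and that of Bst2 from 24.8 to 49.5, so these neighbors in the order overlap before scaling by length.

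Between the labelled groups, 6 members rose, 0 fell and 34 did not pass the test. Samd9l, Parp14, Cmpk2, Stat2, Rsad2 and Ifi204 were higher in the libraries labelled knockout, by log2 fold changes of 0.52 (Stat2) to 1.83 (Rsad2). A low-count filter kept 40 members and dropped Ifit3, Ifit3b, Iigp1 and Ifi44. Over all 15963 genes tested, 870 (5.45%) passed an adjusted p of 0.05 as higher and 498 (3.12%) as lower, a split that became 597 and 682 when libraries were scaled by total counts only. At an unadjusted p under 0.05, 16 members passed and 15 of them were higher, where 26.9% of all genes passed and 14.5% were higher. The log2 fold change was above 0 in 33 of 40 members, against 48.8% of all genes, and the members' median was 0.74, against -0.01 over all genes. All 3 knockout libraries stood above all 3 wild-type libraries in 12 members, where 17.2% of all genes did so, and below them in 1 member (Bst2), where 16.5% did. In bulk RNA, more cells of a type and more RNA per cell cannot be told apart.

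Knockout library 31 stood apart in the members. It was the highest of the 6 libraries in 34 of 40 members, against 15.3% of all genes, and the lowest in none of them. It stood above all wild-type libraries in 36 members (31.6% of all genes), knockout library 40 in 21 (34.5% of all genes) and knockout library 32 in 14 (29.9% of all genes). Relative to the wild-type mean, the median ratio of the members' CPM was 2.36 in library 31, 1.32 in library 40 and 1.08 in library 32. Wild-type library 27 was the lowest in 19 members, against 14.5% of all genes. Without knockout library 31 the members' median log2 fold change was 0.25, 29 of 40 were above 0, and only Samd9l passed the test. Samd9l was also alone without library 40, while without library 32 there were 8 calls, the same 6 members with Irf1 and Ifitm3. Without a single wild-type library the calls were Samd9l with Trim30a (25 left out), with Parp14 (27) or with Cmpk2 (29). Calls fell over all genes as well. With all libraries 870 of 15963 genes were called higher. Without wild-type library 25 it was 409 of 16495, without 27 it was 446 of 16534 and without 29 it was 468 of 16609. Every fit that left out a library, knockout or wild type, called fewer of all genes higher.

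**Figure D1:**
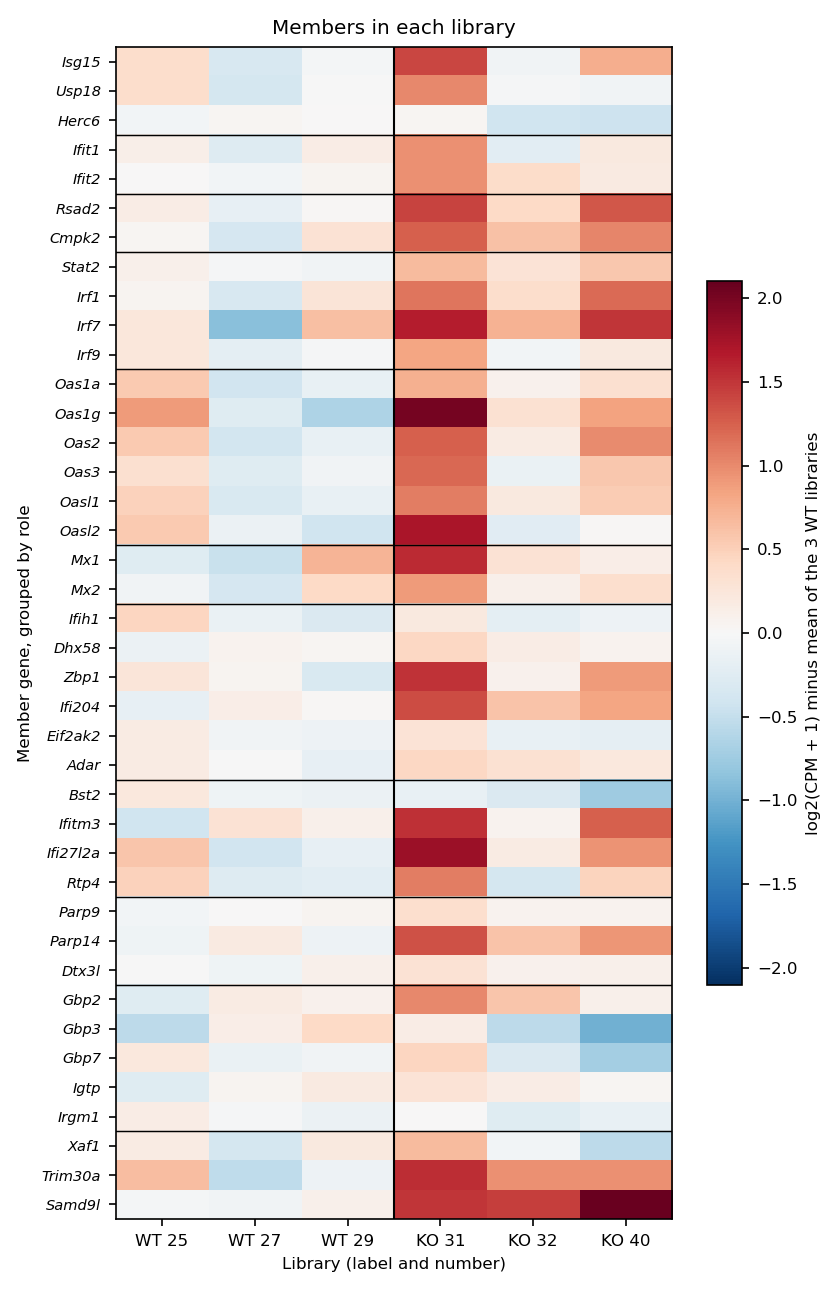
Each row is 1 of the 40 tested members and each column 1 library. Color gives log2(CPM + 1) minus the mean of the 3 wild-type libraries, lines separate roles, and the column of knockout library 31 is the highest in 34 rows.

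Replicates varied more in the members than in genes at large. The median SD of log2(CPM + 1) was 0.44 within knockout and 0.30 within wild type for the 40 members, against 0.18 and 0.17 for all genes tested, which were not matched to the members in level. Library 31 stood at 0.81 to 5.04 times the mean of the other 2 knockout libraries, with a median of 1.60 and more than 2 times in 13 members.

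Samd9l, an interferon-induced brake on translation and cell growth that lies on chromosome 6, was the member with the smallest p. Its level was 31.9, 31.3 and 35.7 CPM in wild-type libraries 25, 27 and 29 and 95.0, 91.6 and 142 CPM in knockout libraries 31, 32 and 40. The knockout libraries were all far above the wild-type ones, and here library 40, not 31, was the highest. The gene (ENSMUSG00000047735, chromosome 6, 3372257 to 3399572, minus strand, in the coordinates of the deposited table) went from 33.0 ± 2.40 to 109.6 ± 28.3 CPM (SD, n = 3 each), a log2 fold change of 1.73 (95% confidence interval 1.32 to 2.14, edgeR adjusted p = 0.00368). It passed in each of the 6 fits without 1 library (highest adjusted p 0.0152) and also without wild-type libraries 27 and 29 together (0.0427). The deposited table names no build, and its positions for Cmpk2, Rsad2 and Stat2 differ from those of GRCm38, so gene positions given from it here and below cannot be set against the promoter positions above. Whether the chromosome 6 shift described above for libraries 27 and 29 bears on Samd9l was not tested.

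Viperin and its neighbor rose together. Rsad2 encodes viperin, a radical enzyme that makes a chain-terminating nucleotide against viral polymerases, and Cmpk2, a mitochondrial nucleotide kinase, supplies its substrate. The genes lie 12751 bases apart on chromosome 12 on opposite strands. Cmpk2 was at 19.1, 14.2 and 23.1 CPM in wild type and at 45.4, 28.9 and 38.8 CPM in knockout. The groups did not overlap, and library 32 was the lowest knockout library. Cmpk2 (ENSMUSG00000020638, chromosome 12, 26519203 to 26529836, plus strand) went from 18.8 ± 4.50 to 37.7 ± 8.33 CPM (SD, n = 3 each), a log2 fold change of 1.00 (interval 0.49 to 1.52, edgeR adjusted p = 0.0354). Rsad2 stood lower throughout, at 1.00, 0.590 and 0.825 CPM in wild type and 3.79, 1.41 and 3.43 in knockout. Library 32 lay nearest to wild type, but the groups did not overlap, and Rsad2 (ENSMUSG00000020641, chromosome 12, 26492745 to 26506451, minus strand) changed by 1.83 on the log2 scale (interval 0.77 to 2.89, edgeR adjusted p = 0.0477). Neither call held without knockout library 40, where the adjusted p was 0.116 for Cmpk2 and 0.149 for Rsad2, or without library 31 (0.098 and 0.124). Of the 6 fits without 1 library, Cmpk2 passed in 2 and Rsad2 in 1. The Rsad2 call also lay at the threshold, with an adjusted p of 0.0506 with upper-quartile scaling, 0.0561 with total counts only and 0.0756 with limma-voom.

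Transcription factors of the pathway had log2 fold changes above 0 in 4 of 4 members, and 1 of them rose. Stat2, the interferon-specific STAT protein, was at 55.3, 50.3 and 48.4 CPM in wild type and 82.1, 62.5 and 76.4 CPM in knockout, with no overlap. Stat2 (ENSMUSG00000040033, chromosome 10, 128106428 to 128128718, plus strand) changed by 0.52 on the log2 scale (interval 0.24 to 0.80, edgeR adjusted p = 0.0406), with an adjusted p of 0.109 without knockout library 31 and 0.126 without library 40. Stat2 passed in 1 of the 6 fits without 1 library. With total-count scaling Stat2 had a log2 fold change of 0.39 and an edgeR adjusted p of 0.0937. Irf7, the factor that amplifies type I interferon production, was at 16.9, 7.29 and 22.5 CPM in wild type and 46.6, 24.0 and 41.8 CPM in knockout. Knockout library 32 lay just above wild-type library 29, the groups did not overlap, and the log2 fold change of 1.27 did not pass (edgeR adjusted p = 0.129). Irf1, which responds mainly to interferon gamma, was at 52.3, 39.4 and 60.9 CPM in wild type and 111, 64.7 and 115 CPM in knockout, again without overlap. Its log2 fold change was 0.93 (edgeR adjusted p = 0.0682), and the poorly characterized gene Gm17334 overlaps it on the other strand. Irf9, the DNA-binding partner of STAT2, was at 40.3, 29.6 and 33.6 CPM in wild type and 61.7, 33.0 and 39.8 CPM in knockout. Only library 31 stood clear of the wild-type range, and the log2 fold change was 0.38 (edgeR adjusted p = 0.347). Rnf31 overlaps Irf9 on the same strand over 123 bases, and Phrf1 overlaps Irf7 on the other strand over 45 bases. Both partners had more counts than the member they overlap.

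Most OAS enzymes make the short oligoadenylates that switch on RNase L. All 6 members had log2 fold changes above 0, from 0.37 (Oas1a) to 1.31 (Oas1g), yet 0 of 6 passed the edgeR test over all genes and 1 (Oas2) had an unadjusted p under 0.05. Oas2 was at 27.4, 13.9 and 16.5 CPM in wild type and 45.3, 20.9 and 37.9 CPM in knockout. Knockout library 32 lay inside the wild-type range while 31 and 40 lay above it. Oas1a was at 38.9, 19.5 and 23.5 CPM in wild type and 44.8, 27.8 and 33.3 CPM in knockout, with wild-type library 25 above 2 of the knockout libraries. Its close copy Oas1g was at 5.59, 1.98 and 1.27 CPM and 13.2, 3.40 and 5.35 CPM in the same order of libraries. The longest coding transcripts of Oas1a and Oas1g were 97.5% identical over 1860 aligned bases in GENCODE M21, so the division of reads between them is uncertain. Oas3 and Oasl1 had values of 0.65 and 1.04 with all 6 libraries, and Oasl2, at 0.96, turned to -0.24 without library 31.

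In the IFIT family, several of whose proteins bind foreign RNA, 2 of 4 members were abundant enough to test and 0 passed. Ifit2 was at 11.3, 10.8 and 11.7 CPM in wild type and 22.8, 15.1 and 13.0 CPM in knockout. The groups did not overlap, wild type varied little, and the log2 fold change was 0.59 (edgeR adjusted p = 0.144). Ifit1, usually a strongly induced gene, was at 0.412, 0.0695 and 0.444 CPM and 1.52, 0.115 and 0.490 CPM, and its value of 1.18 turned to -0.05 without library 31. Ifit3 had 5, 5 and 2 counts in wild type and 31, 10 and 2 in knockout. Its copy Ifit3b had 3, 1 and 0 counts in wild type and 13, 6 and 0 in knockout. Library 31 held most counts of both, and their transcripts were 98.0% identical over 1697 bases, so the 2 genes may share reads.

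The ISG15 system, in which the modifier is conjugated to other proteins, gave 0 calls among 3 members. Isg15 was at 1.68, 0.625 and 1.01 CPM in wild type and 4.43, 0.956 and 2.49 CPM in knockout. Libraries 31 and 40 were the highest and 32 lay inside the wild-type range (a difference of 1.24, interval -0.14 to 2.61, edgeR adjusted p = 0.227). Usp18, which removes ISG15 and blocks the type I receptor, was high in library 31 alone (3.50, 1.19 and 1.10 CPM in knockout against 1.88, 0.729 and 1.21 in wild type), and its value went from 0.60 to -0.16 without that library. Herc6, the mouse ligase for ISG15, had a log2 fold change of -0.28 (edgeR adjusted p = 0.404). Usp18 and Herc6 lie on chromosome 6. The Mx GTPases, which trap viral nucleoproteins, had values of 0.78 (Mx1) and 0.70 (Mx2) without passing, and Mx1 was at 8.12, 6.91 and 16.9 CPM in wild type and 31.2, 12.4 and 11.0 CPM in knockout, so library 31 alone stood above wild-type library 29.

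**Figure D2:**
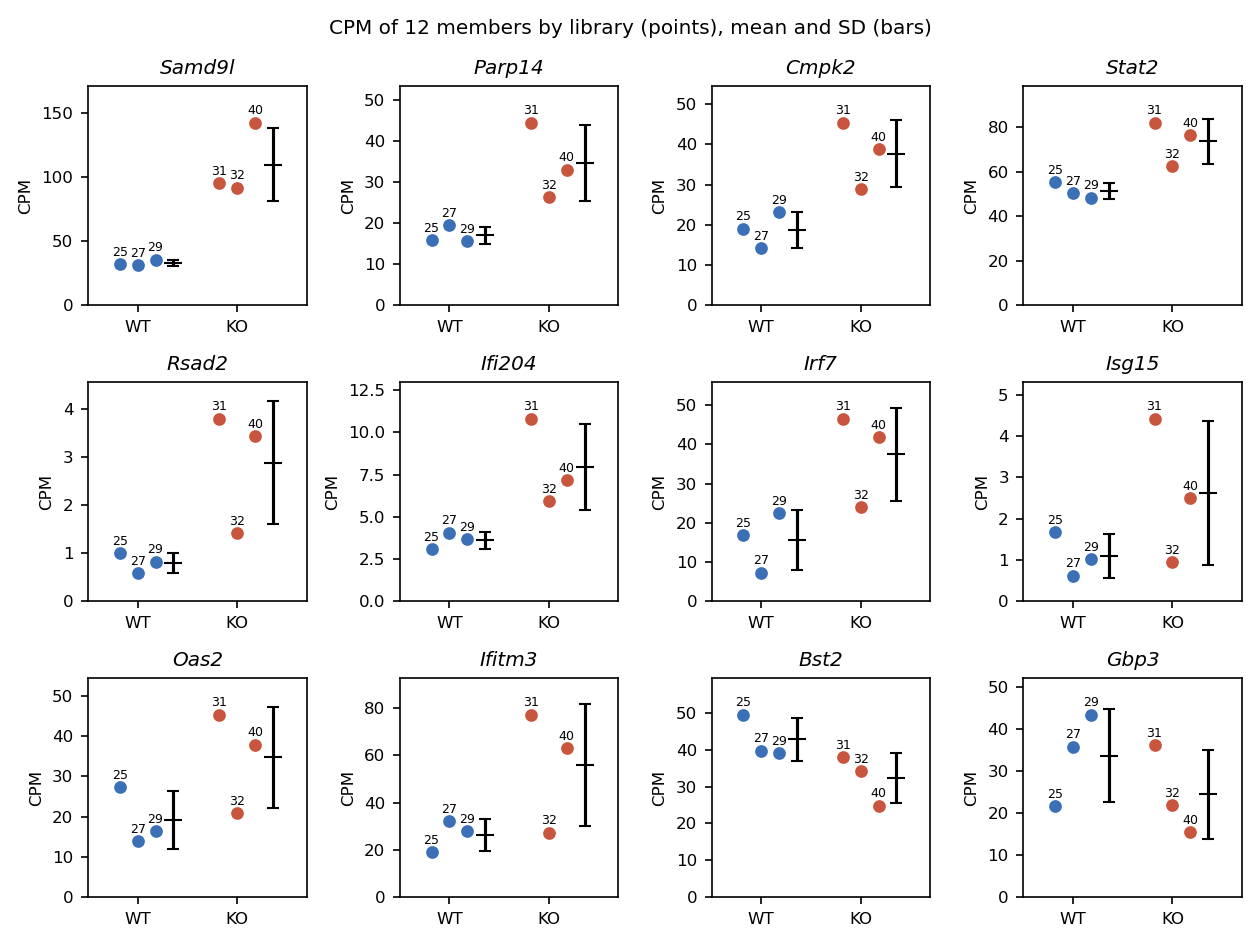
CPM on a linear axis for 12 members, with wild-type libraries in blue, knockout libraries in red, library numbers beside the points, and bars for the mean and SD of 3 libraries. Samd9l, Parp14, Cmpk2, Stat2, Rsad2, Ifi204 and Irf7 show knockout libraries all above wild type, Bst2 shows them all below, and the others overlap.

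Among sensors and RNA enzymes, Ifi204 rose and 5 did not pass. Ifi204, an interferon-inducible protein of the DNA-binding p200 family, was at 3.09, 4.06 and 3.68 CPM in wild type and 10.8, 5.93 and 7.19 CPM in knockout. Every knockout library exceeded every wild-type library, and Ifi204 (ENSMUSG00000073489, chromosome 1, 173574859 to 173594509, minus strand) changed by 1.14 on the log2 scale (interval 0.47 to 1.82, edgeR adjusted p = 0.0498). This call lies at the threshold: the adjusted p was 0.0547 with upper-quartile scaling, 0.0717 with total counts only, 0.0516 without robust shrinkage, 0.0563 with limma-voom and 0.0503 without genes on chromosomes X and Y. Of the 6 fits without 1 library, Ifi204 passed in 1. Zbp1, a sensor of Z-form nucleic acid, was at 4.44, 3.75 and 2.66 CPM in wild type and 12.1, 3.86 and 7.44 CPM in knockout, where library 32 overlapped wild type (log2 fold change 1.11, edgeR adjusted p = 0.14). Adar, the RNA editor that marks self RNA, was at 88.7, 77.9 and 69.3 CPM in wild type and 107, 98.5 and 91.2 CPM in knockout. The groups did not overlap, but the log2 fold change was small at 0.33 (edgeR adjusted p = 0.116), and Chrnb2 overlaps it on the other strand. The double-stranded RNA sensors Ifih1 and Dhx58 had values of -0.06 and 0.24. Eif2ak2, the kinase PKR, was at 52.9, 44.4 and 43.1 CPM in wild type and 57.1, 41.7 and 40.7 CPM in knockout for a difference of -0.01 with an interval of -0.37 to 0.35, and neither group stood apart.

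Membrane proteins had values in both directions, with 0 of 4 past the test. Ifitm3 was at 19.2, 32.4 and 27.9 CPM in wild type and 77.3, 27.4 and 63.0 CPM in knockout, high in libraries 31 and 40 while library 32 lay inside the wild-type range (log2 fold change 1.08, edgeR adjusted p = 0.147). Bst2, which has 2 response element matches in its promoter above, was at 49.5, 39.7 and 39.0 CPM in wild type and 38.0, 34.1 and 24.8 CPM in knockout. It was the only tested member with all knockout libraries below all wild-type ones, at a log2 fold change of -0.40 (interval -0.81 to -0.00075, edgeR adjusted p = 0.185). Ifi27l2a, a small interferon-inducible protein, was at 3.35, 1.18 and 1.55 CPM and 9.04, 2.26 and 4.58 CPM, with a log2 fold change of 1.38 (edgeR adjusted p = 0.177). Rtp4, a chaperone of receptors, had a wide interval of -1.09 to 3.17 around 1.04.

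Parp14, an ADP-ribosyltransferase that takes part in cytokine signalling, rose while the pair beside it did not pass. It was at 15.9, 19.4 and 15.7 CPM in wild type and 44.4, 26.3 and 33.0 CPM in knockout, with no overlap between groups. Parp14 (ENSMUSG00000034422, chromosome 16, 35653244 to 35691914, minus strand) went from 17.0 ± 2.11 to 34.6 ± 9.18 CPM (SD, n = 3 each), a log2 fold change of 1.02 (interval 0.56 to 1.49, edgeR adjusted p = 0.0246). Parp14 passed in 2 of the 6 fits without 1 library. Its highest edgeR adjusted p among them was 0.0776, without knockout library 40. Parp9 and its partner ligase Dtx3l overlap head to head over 682 bases on chromosome 16. Dtx3l was at 43.4, 41.3 and 47.0 CPM in wild type and 54.2, 46.6 and 47.2 CPM in knockout (log2 fold change 0.17, edgeR adjusted p = 0.355), and Parp9 had a value of 0.18 with all knockout libraries just above wild type. Since the use of strand in counting is unknown here, reads in the overlap are uncertain.

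The guanylate-binding and immunity-related GTPases, which attack vacuoles of intracellular microbes and respond strongly to interferon gamma, had a median of -0.13, and 0 of 5 tested members passed. That median stayed below 0 with each scaling used, but was 0.12 without knockout library 40 and 0.17 without wild-type libraries 27 and 29. Gbp3 was at 21.7, 35.8 and 43.4 CPM in wild type and 36.2, 21.9 and 15.6 CPM in knockout. Both groups spread widely and overlapped (log2 fold change -0.45, edgeR adjusted p = 0.472). Gbp2 had a value above 0 from a low level, with 0.382, 0.868 and 0.761 CPM in wild type and 2.34, 1.49 and 0.776 CPM in knockout (log2 fold change 1.20, edgeR adjusted p = 0.187). Gbp7, Igtp and Irgm1 had values of -0.13, 0.17 and -0.14, and Igtp shares nearly all of its span and its strand with Irgm2 in the deposited table. Iigp1 was seen with 2 counts over wild type, and its 5 knockout counts were all in library 31.

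Of the remaining effectors, Trim30a, a restraint on inflammatory signalling, was at 33.5, 14.3 and 19.5 CPM in wild type and 63.8, 42.0 and 41.9 CPM in knockout. The groups did not overlap, although wild-type library 25 came close, and the log2 fold change of 1.13 did not pass (edgeR adjusted p = 0.0849). Its transcript was 87.0% identical to that of Trim30d over 3041 aligned bases. Xaf1, a partner of the apoptosis inhibitor XIAP, had a value of 0.10 that turned to -0.01 with total-count scaling and to -0.37 without library 31. Ifi44 had 0 counts over wild type and 2 over knockout, under the floor of 3 counts below which no fold is given.

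**Figure D3:**
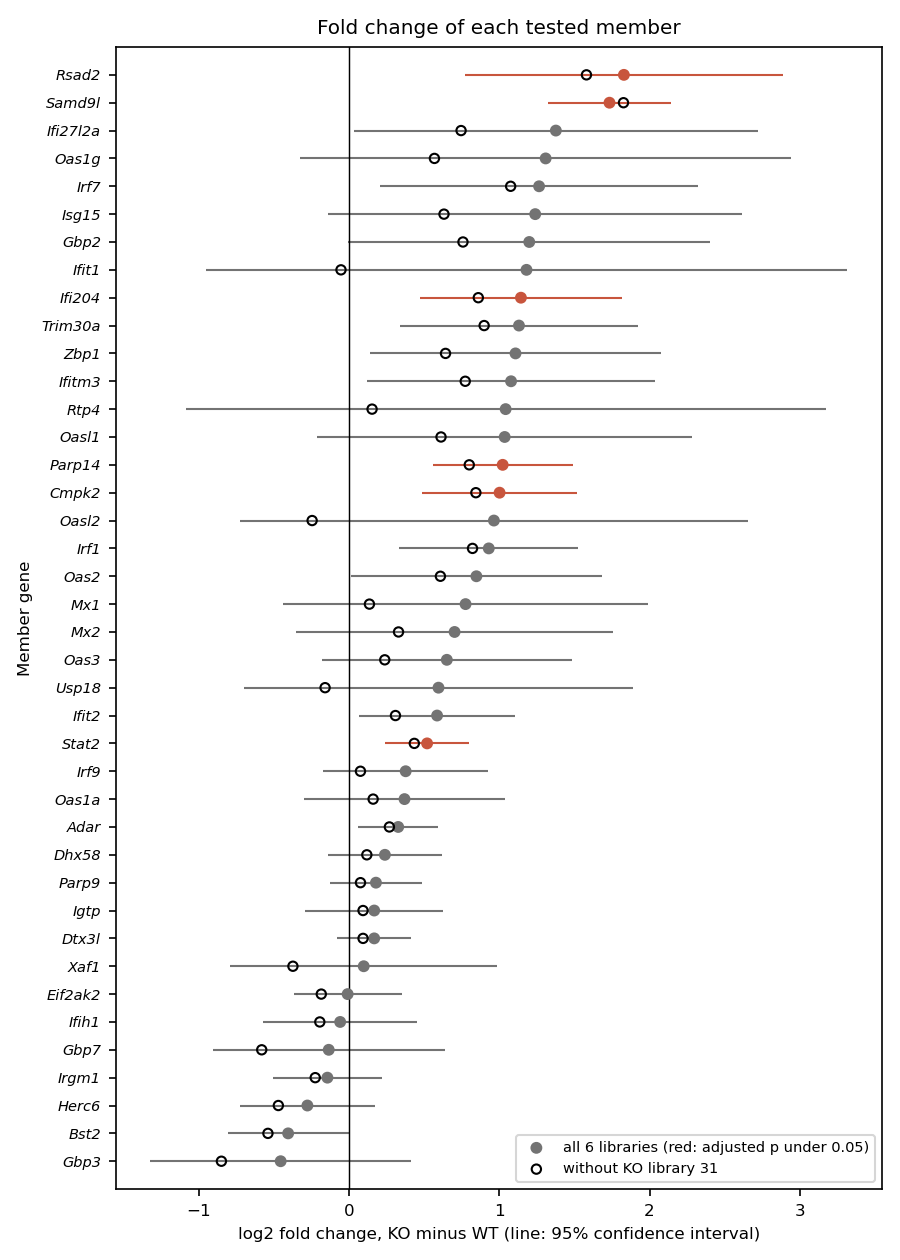
Log2 fold change, knockout minus wild type, of the 40 tested members with 95% confidence intervals. Filled points use all 6 libraries, red ones passing an adjusted p of 0.05, and open circles leave out knockout library 31, which moves Usp18, Ifit1, Oasl2 and Xaf1 across 0 and leaves Samd9l in place.

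Members with and without a promoter match had like values. Of the tested members with a RefSeq entry, the 14 with a response element match had a median log2 fold change of 0.59 and the 15 without one also had 0.59. Knockout library 31 was the highest library in 11 of the 14 and in 12 of the 15. Among the 6 members that rose, Stat2 and Rsad2 had a match, Cmpk2 and Samd9l had none in this window, and the other two had no entry.

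The rest of the pathway was read from 6 lists of 142 genes, of which 114 were tested and 14 rose, 0 fell. Of all genes tested by edgeR, 5.45% rose, 3.12% fell and 26.9% had an unadjusted p under 0.05. Ligands were nearly silent. Of 12 interferon genes, 8 had 0 counts in every library, and Ifnb1, the first type I interferon of most responses, had 1 count in all. Ifng, the gene of interferon gamma, had 0 counts in each wild-type library and 8, 1 and 7 in knockout libraries 31, 32 and 40. Over the groups the 16 knockout counts are 6.49-fold higher when wild type is set to 3 counts in all. That value takes the knockout counts as exact, so it is not a bound. It also leaves out the spread between libraries. The summed CPM of all 12 ligand genes was 0.265, 0.174 and 0.0317 in wild type and 0.372, 0.115 and 0.327 in knockout. The groups overlapped in this sum, and its wild-type part came from ligands other than Ifng. Libraries 31 and 40, highest in Ifng, were also the highest in the summed CPM of the members. That sum was 799.5, 669.6 and 741.7 in wild type and 1321, 865.4 and 1074 in knockout. Whether Ifng takes part in the members' values was not tested.

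Receptors and kinases held 2 of the genes that rose, among 9 tested. Ifnlr1, the specific chain of the interferon lambda receptor, was at 1.03, 3.30 and 4.66 CPM in wild type and 18.9, 15.5 and 28.4 CPM in knockout. All knockout libraries were several times higher than wild type (log2 fold change 2.80, edgeR adjusted p = 0.0278). Jak1 went from 178 ± 9.40 to 239 ± 21.2 CPM (SD, n = 3 each) (log2 fold change 0.43, edgeR adjusted p = 0.0374). Ifnar1 and Ifnar2 had values of 0.00 and 0.21. Of 9 signal transducers and other IRF factors 0 passed the edgeR test and 0 had an unadjusted p under 0.05, the smallest p belonging to Irf2bp2 (log2 fold change 0.20) and Irf2 (log2 fold change 0.25). By DESeq2 as well, 0 of these 9 passed, while Irf5 and Irf8 passed without wild-type libraries 27 and 29.

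Upstream sensors and adaptors gave 1 call among 15 tested, Tlr8, an endosomal receptor of RNA (log2 fold change 1.52, edgeR adjusted p = 0.0483). Among 9 tested negative regulators Ptpn1 rose, a phosphatase that acts on JAK2 and TYK2 (log2 fold change 0.68, edgeR adjusted p = 0.0411). A further list of interferon-stimulated genes, kept apart from the members, had 72 tested genes with a median of 0.36. In it 10 rose and 0 fell, where 5.45% of all genes rose and 3.12% fell. Slfn1, a Schlafen gene linked to growth arrest, was at 4.76, 3.44 and 4.09 CPM in wild type and 29.7, 17.0 and 24.0 CPM in knockout (log2 fold change 2.52, edgeR adjusted p = 0.00274). No knockout library came near the wild-type range. Epsti1 (1.13), the nuclear body gene Sp140 (0.76) and Ube2l6 (2.30), the conjugating enzyme of ISG15, rose too. Slfn1, Epsti1 and Sp140 stayed past the threshold in all 6 fits that left out 1 library. In this list library 31 was the highest in 31 of 72 genes (15.3% of all genes) and library 40 in 18 (23.2% of all genes). Ifnlr1, Jak1, Tlr8, Ptpn1 and Ube2l6 did not pass without library 31, nor without library 40. Jak1, Tlr8 and Ptpn1 did not pass with total-count scaling, and Tlr8 did not with upper-quartile scaling. The count of pathway genes that rose was 4 without library 31, 3 without library 40, 5 without wild-type library 29 and 7 without wild-type library 25. In these fits fewer of all genes were called higher too.

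**Figure D4:**
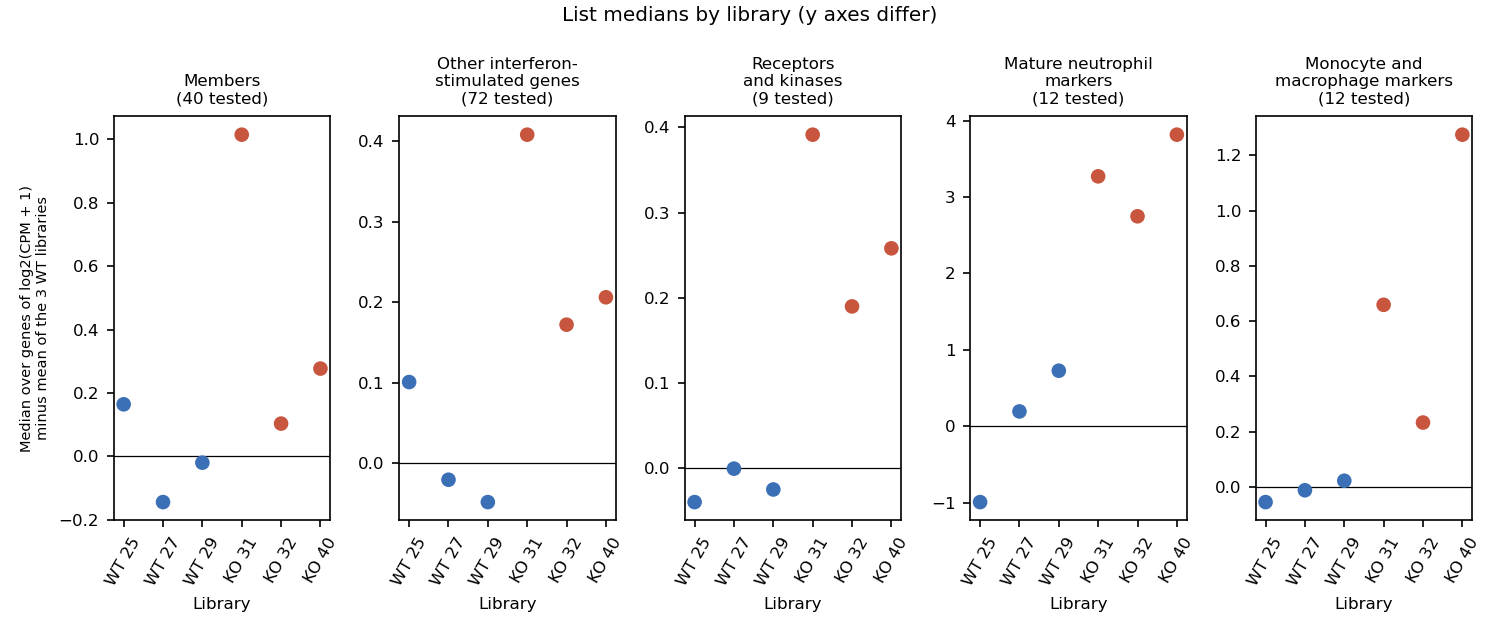
Median over the tested genes of a list of log2(CPM + 1) minus the wild-type mean, for each library (wild type blue, knockout red), with y axes that differ between panels. Knockout library 31 is highest in the 3 interferon panels, and library 40 is highest in the neutrophil and monocyte panels.

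Lists of cell type markers were read as well, and some of them moved with the labels. Among all genes tested by edgeR, 5.45% rose, 3.12% fell and 26.9% had an unadjusted p under 0.05. Of 12 mature neutrophil markers 7 rose and 0 fell, and their summed CPM was 1001 to 3670 in wild type and 11659 to 27913 in knockout. Of 12 monocyte and macrophage markers 3 rose and 0 fell, with sums of 1266 to 1824 and 3046 to 5192 CPM. Both sums were highest in library 40, while the members' sum was highest in library 31. None of these 24 markers was at 0. T cell markers (0 of 5 tested passed, 4 with an unadjusted p under 0.05) summed to 1.39 to 2.82 CPM in wild type and 3.71 to 13.0 in knockout. Cd3e, Trbc1, Trbc2 and Cd4 were at 0 in wild-type library 27 and Cd3e also in knockout library 32, while all 10 had counts in libraries 31 and 40. NK cell markers (0 of 2 tested passed, 0 with an unadjusted p under 0.05) summed to 28.7 to 63.5 and 17.6 to 58.5 CPM, nearly all of it Nkg7. Of the 2 tested, 1 had a log2 fold change above 0 and 1 below 0. The NK sum was highest in wild-type library 29 and lowest in knockout library 32.

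Plasmacytoid dendritic cells, a main source of type I interferon, had low markers: Siglech, their defining receptor, was at 0.0588, 0.764 and 0.698 CPM in wild type and 0.335, 0.0765 and 0 CPM in knockout. Of 10 markers of these cells 4 were tested and 1 fell (Runx2, -0.50), with sums of 145.3 to 186.1 CPM in wild type and 127.1 to 139.1 in knockout, most of it Runx2 and Tcf4, which are not limited to these cells. Conventional dendritic cell markers had 0 calls among 4 tested and 1 unadjusted p under 0.05 (sums 215.8 to 274.5 and 55.8 to 232.0 CPM). Among 4 tested B cell markers 1 fell, Vpreb3 (sums 13.2 to 32.5 and 12.7 to 33.0 CPM). Of 4 tested erythroid markers 1 rose, Hbb-bs (sums 1.43 to 2.56 and 3.43 to 4.98 CPM). Which cells these RNAs came from, and their part in the members' values, was not tested.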

How the data were processed

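The authors deposited whole-number counts per gene, not normalized, for 6 libraries and 56748 genes, with gene length in a further column. Per the submitters' processing notes, Salmon, limma, GRCm38 and mm10 belong to the pipeline, with no steps given. The sources used here do not give whether the deposited counts are reads or rounded estimates, nor how strand was used. RNA was extracted with TRIzol and sequenced by a company, per the labels' protocols.

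The members and gene lists were chosen with earlier results of these data known, so no set test and no p over a list is given. Genes were kept by filterByExpr of edgeR 4.0.16 (minimum count 10, minimum total 15), scaled by TMM and tested with the robust quasi-likelihood fit in R 4.3.3, knockout minus wild type, with no covariates. The Benjamini-Hochberg adjustment ran over the 15963 genes that passed the filter, and an adjusted p under 0.05 counted as a call. CPM and SD use TMM-scaled library sizes. Profiles use log2(CPM + 1). The labels call the replicates independent but do not tie them to animals, so p-values measure the spread between these samples, which may be technical. Per-library values are given for members that passed, for the 12 highest and for some of the near copies. They are also given for the 10 with the largest fold changes at 1 CPM or more. Oas2 and Usp18, given as well, belong to none of these groups. Of each pathway list up to 4 genes that passed could be named. On simulated data with 15963 genes, the procedure for this comparison found 13.0% of those altered 1.5-fold, 53.4% at 2-fold and 85.1% at 4-fold. False calls made up 8.44% of all calls. The altered genes were drawn from all tested genes above 1 CPM. The members varied more between replicates and some lie under that level, so these shares may not hold for them. Alternatives used DESeq2 1.42.0, limma-voom 3.58.1, other scalings and filters, and fewer libraries. Promoters are from RefSeq, and transcripts from GENCODE M21 were aligned with Biopython 1.88.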

Additional observations from a re-analysis of the deposited data

How the results depend on the processing

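No member's direction reversed while it passed the test, and the median of the members stayed above 0 in all alternatives run. The number of members that rose was 6, against 10 with DESeq2, 3 with total counts only, and 1 without wild-type libraries 27 and 29, a fit with 1 wild-type library that is assumed to vary like the knockout libraries. Fits without 1 library gave 1 to 8: 1 if knockout library 31 or 40 was missing, 8 if knockout library 32 was, and 2 if any wild-type library was. Members that fell numbered 0 throughout. The members' median ranged from 0.25 (without knockout library 31) to 0.96 (without knockout library 32). Total-count scaling moved the median of all genes to -0.13.

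Pathway genes that rose numbered 14, against 31 with DESeq2 (1 fell), 24 without a filter, 9 with total counts only and 7 without wild-type libraries 27 and 29. With 1 library left out they ranged from 3 to 17, and 0 to 1 fell. Of all genes, DESeq2 called 1553 higher and 1054 lower, the unfiltered fit called 836 lower, and the fit without wild-type libraries 27 and 29 called 305 higher and 148 lower. With 1 library left out, 245 to 787 were higher and 102 to 440 lower. The causes of these shifts were not tested, except that fits with fewer libraries have fewer samples. Of the 6 members that rose, only Samd9l passed in each of the 6 fits without 1 library, and 33 of 40 tested members kept their sign in all 6. No paired analysis was possible because the library numbers are not shared between the groups. Depth limits Ifit1, Ifit3, Ifit3b, Iigp1, Ifi44 and Ifng, which rest on few counts.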

Other observations

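Among genes outside the members, 2 feedback inhibitors of cytokine signalling varied between knockout libraries. Socs3 was at 79.4, 99.0 and 138 CPM in wild-type libraries 25, 27 and 29 and at 11.8, 14.9 and 139 CPM in knockout libraries 31, 32 and 40. Library 40 lay at the top of the wild-type range and the other two were far lower (log2 fold change -0.94, edgeR adjusted p = 0.594), and Socs3 passed as lower when library 40 was left out. Cish was at 1.76, 1.32 and 1.81 CPM in wild type and 12.6, 2.26 and 8.01 CPM in knockout, with all knockout libraries above wild type and library 32 closest to it (log2 fold change 2.22, edgeR adjusted p = 0.0543).

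Among the listed interferon-stimulated genes outside the members, 2 abundant ones did not pass the test. Plac8, a gene of myeloid progenitors, was at 1176, 869 and 1153 CPM in wild type and 1160, 834 and 878 CPM in knockout (log2 fold change -0.15, edgeR adjusted p = 0.595). Ly6c2, a surface marker of monocytes, was at 634, 1024 and 1168 CPM and 822, 719 and 759 CPM (log2 fold change -0.30, edgeR adjusted p = 0.404). In both genes the groups overlapped. The choice of these 4 genes was made with their values known.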
